A study of Homo sapiens with 19 samples.

Results

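HCT116, a human colorectal carcinoma cell line, was exposed for 96 h to GSK025 (GSK3235025), an inhibitor of the protein arginine methyltransferase PRMT5, at 10 µM, and its RNA was compared with that of cells given the solvent DMSO for the same time. There were 3 libraries of each, and together they make up 6 of the 19 libraries of the series. All genes that passed a filter on low counts were taken, which was 19751 of the 60612 genes in the table. A further 3 libraries of HCT116 with GSK715 (GSK3368715, an inhibitor of PRMT1) at 5 µM for 96 h share the table and are used only for contrast. The doses of the compounds differ, so that compound and dose cannot be told apart between them. All libraries are of a single line and a single time, and no label says whether replicates came from separate cultures. The p-values therefore reflect only how far these libraries differ from each other, which may be technical. In bulk RNA, fewer cells of a kind and less RNA per cell cannot be told apart.

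PRMT5 transfers methyl groups from S-adenosylmethionine (SAM) to arginine side chains and leaves symmetric dimethylarginine. It works in a complex with WDR77, and adaptors such as CLNS1A, RIOK1 and COPRS bring it to different substrates. Among the best known substrates are Sm proteins, which form the ring of the spliceosomal small nuclear ribonucleoproteins (snRNPs) and are loaded on their RNA by the SMN complex. PRMT5 also methylates histones, and its loss is known to disturb splicing and to engage the p53 pathway.

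Levels are CPM, that is counts relative to the library total, scaled by TMM, a factor for differences in RNA composition. They are given per library in the order of the replicate numbers, which carry no rank. Changes are log2 fold changes with an approximate standard error (SE). A gene is said to have risen or fallen where its adjusted p in edgeR's quasi-likelihood test was at most 0.05, adjusted by Benjamini-Hochberg over all 19751 genes. Genes that share at least 10% of their exonic bases with another gene are marked as overlapped, and their values are uncertain since the strand of the counting is not given in the sources used here.

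GSK025 changed a large part of the transcriptome by small amounts. With GSK025, 8708 genes were called (44.1% of those tested), of which 4338 rose and 4370 fell, 22.0% and 22.1%. Only 266 of the risen genes (1.35% of those tested) changed by at least 2-fold, against 1485 of the fallen genes (7.52%). Increases were thus many and small, and the larger changes were mostly decreases. The median log2 fold change was -0.018 over all genes tested and 0.05 over the 11208 genes of at least 5 CPM. Of the latter, 36.1% rose and 30.7% fell. The share that rose grew with the level. Of the 224 protein-coding genes of highest level 70.5% rose and 16.5% fell. Of the next 1545 by level it was 57.0% and 23.2%, and under 1 CPM 1.75% and 6.19%. The shares over all genes given below beside gene lists are not matched for level. For lists of abundant genes they are thus a low measure of how many would rise. The values of the groups did not overlap in 10816 genes (54.8%).

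**Figure D1:**
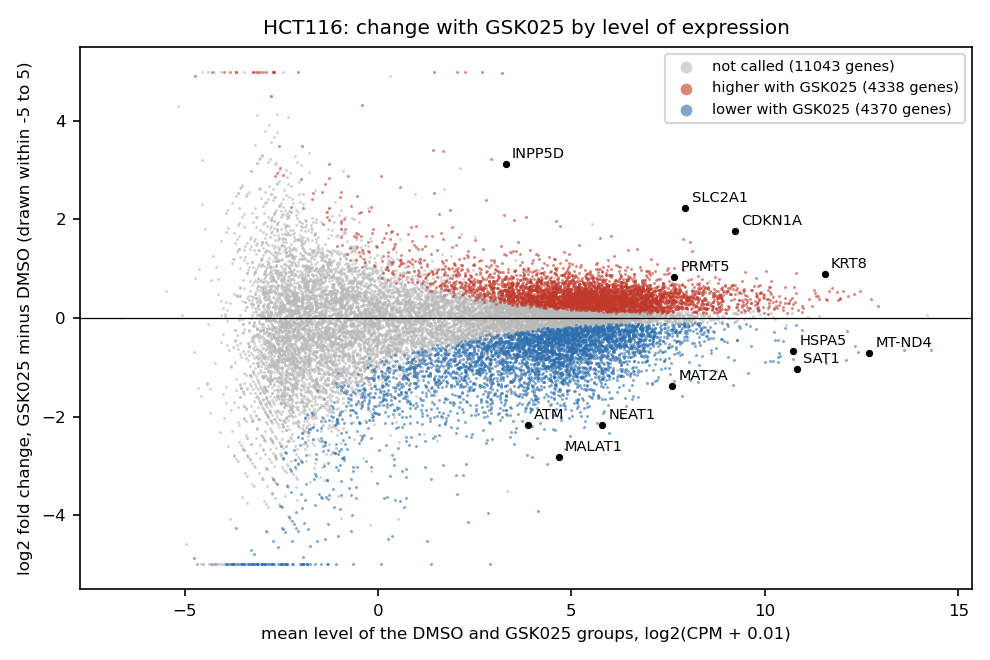
Each point is a gene of HCT116. The x axis is its mean level (log2 of CPM + 0.01) and the y axis its log2 fold change with GSK025 against DMSO, drawn within -5 to 5. Genes that rose (red, 4338) lie close above 0 at high levels, while genes that fell (blue, 4370) reach further from 0.

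Library totals ran from 64558688 to 66915779 counts over the 9 HCT116 libraries, and no replicate was a copy of another. Transcripts encoded in the mitochondrial genome took 8.64% to 9.09% of the counts with DMSO, 5.13% to 5.48% with GSK025 and 5.09% to 5.42% with GSK715. Colon epithelial markers fitted the label in part: EPCAM, CDH1, CDX2 and the simple keratins were present, while 3 of 10 (VIL1, LGALS4 and TSPAN8) stayed under 1 CPM in every library. The summed level of this list was 4660 to 4780 CPM with DMSO and 7690 to 8100 with GSK025, through KRT8, KRT18 and KRT19. Of the immune markers, PTPRC was at 0 throughout and 6 of 7 were under 1 CPM. The summed stromal markers went from 26.0 to 30.4 CPM with DMSO to 52.7 to 61.7 with GSK025, mostly ACTA2 (overlapped).

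Transcripts of the inhibited enzyme's own complex were among those that rose. PRMT5 (overlapped) was at 143, 150 and 143 CPM with DMSO and at 256, 268 and 253 with GSK025, a log2 fold change of 0.84 (SE 0.04, adjusted p = 1.65e-08). COPRS, which links PRMT5 to histones, was at 19.7, 18.7 and 18.5 CPM with DMSO and at 30.2, 36.5 and 36.9 with GSK025 (0.86, SE 0.10, adjusted p = 1.31e-05). WDR77 (overlapped), the obligate partner, was at 10.9, 10.8 and 11.3 CPM and then at 18.2, 16.4 and 16.6 (0.63, SE 0.09, adjusted p = 7.79e-05). Every GSK025 library was above every DMSO library for all 3 genes, where the groups did not overlap in 54.8% of all genes tested. Each was also higher with GSK025 than with GSK715, by a log2 fold change of 0.61 for PRMT5, 0.90 for COPRS and 0.40 for WDR77. The other adaptors did not pass the test: CLNS1A was at 0.05 (SE 0.05) and RIOK1 at -0.02 (SE 0.06), and their groups overlapped.

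The rest of the PRMT family moved in the same direction with few exceptions. Of 7 other PRMT genes tested, 5 rose and 1 fell, against 22.0% and 22.1% of all genes. PRMT7, which makes monomethylarginine, was at 14.2, 13.0 and 11.7 CPM with DMSO and at 20.5, 20.2 and 23.6 with GSK025 (0.73, SE 0.11, adjusted p = 9.60e-05). PRMT2 rose by 0.45 (SE 0.07), CARM1 (overlapped) by 0.31 (SE 0.06) and PRMT6 by 0.65 (SE 0.20), the last without passing in 4 of the 6 fits that left out a library (adjusted p 0.058 to 0.11). PRMT9, the other enzyme known for symmetric dimethylation, fell from 14.8, 11.1 and 13.4 CPM to 6.34, 6.99 and 6.65 (-0.98, SE 0.12, adjusted p = 2.58e-05). PRMT9 was also lower than with GSK715, by -0.90 (SE 0.12). No GSK025 library reached the lowest DMSO library, where the groups did not overlap in 54.8% of all genes. PADI3, an enzyme that converts arginine in proteins to citrulline, was at 4.20, 3.42 and 3.21 CPM with DMSO, at 14.7, 15.4 and 15.8 with GSK025 and at 3.41, 2.90 and 3.15 with GSK715. It was among the 12 largest increases (2.08, SE 0.14, adjusted p = 1.50e-07). Those were taken only among genes whose GSK025 and DMSO libraries did not overlap.

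Sm and LSm proteins, which form rings on small RNAs, rose in part. Of 20 tested, 9 rose and 2 fell, against 22.0% and 22.1% of all genes. Their median log2 fold change was 0.19, against -0.018 over all genes. Of the Sm proteins that PRMT5 methylates, SNRPB (overlapped) was at 180, 209 and 182 CPM with DMSO and at 286, 306 and 294 with GSK025 (0.63, SE 0.06, adjusted p = 3.06e-06). SNRPD3 (overlapped) was at 82.4, 82.4 and 85.7 CPM and then at 108, 107 and 118 (0.41, SE 0.05, adjusted p = 1.87e-05). SNRPD1, the third of these substrates, was at 0.14 (SE 0.07, adjusted p = 0.124) with overlapping groups. LSM2 (0.52, SE 0.05) and LSM4 (0.36, SE 0.05) of the rings on U6 rose, while their partner LSM8 fell from 28.5, 25.5 and 28.8 CPM to 17.6, 16.8 and 21.2 (-0.58, SE 0.10, adjusted p = 3.71e-04). LSM10 and LSM11 belong to the U7 snRNP, which cuts histone messenger RNAs: LSM10 rose by 0.48 (SE 0.09) and LSM11 fell by 0.55 (SE 0.10). SNRPD2 rose by 0.32 and lost its call when the length trend described below was an offset (0.093, adjusted p = 0.13), where SNRPB was at 0.41, SNRPD3 at 0.25, LSM2 at 0.30 and LSM10 at 0.25.

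Of the 10 genes of the SMN complex, GEMIN4 (0.33, SE 0.06) and GEMIN5 (0.27, SE 0.06) rose and none fell, against 22.0% and 22.1% of all genes, and 1 fell when levels were scaled by library totals in place of TMM, or with the length offset. GEMIN5, which recognises the small nuclear RNAs, was at 60.0, 54.9 and 61.9 CPM with DMSO and at 72.1, 72.2 and 69.0 with GSK025. GEMIN2 was at 0.07 (SE 0.08). SMN1 and SMN2 are near-identical copies between which reads can be split, so their values are uncertain.

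Most genes of the major spliceosome core rose, with 34 of 54 higher and 10 lower. PRPF8, the scaffold around the catalytic centre, was at 493, 493 and 490 CPM with DMSO and at 1012, 966 and 848 with GSK025 (0.94, SE 0.05, adjusted p = 3.43e-08). PRPF6 (0.88, SE 0.04) and the helicase DDX23 (0.66, SE 0.04), both of the U5 snRNP, rose as well. Among the decreases, SF3B1, which holds the branch point, fell from 406, 387 and 404 CPM to 297, 269 and 296 (-0.47, SE 0.05, and -0.27 with the length offset). CWC22, a splicing factor needed to place the exon junction complex, fell by 0.76 (SE 0.09). Among 12 genes of the minor spliceosome 4 rose and 5 fell, and 2 rose and 5 fell with library totals and with the length offset. SNRNP48 of the U11/U12 particle fell from 56.8, 59.9 and 59.0 CPM to 21.8, 21.0 and 21.7 (-1.44, SE 0.05, adjusted p = 2.08e-09). The GSK025 libraries of SNRNP48 lay within 1 CPM of each other.

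SR proteins, which bind exonic enhancers, were divided: of 13 tested, 4 rose and 5 fell, against 22.0% and 22.1% of all genes. SRSF1 (overlapped) went from 107, 96.1 and 103 CPM to 43.3, 44.4 and 49.4 (-1.16, SE 0.07, adjusted p = 7.35e-08). SRSF3 moved the other way, from 223, 227 and 220 CPM to 279, 279 and 301 (0.36, SE 0.05, adjusted p = 2.72e-05). With GSK715, SRSF3 was at 76.2, 83.7 and 78.0 CPM, so that the compounds lay on opposite sides of DMSO, and the difference between them was 1.85 (SE 0.05). SRSF6 fell by 0.46 (SE 0.04) and SRSF10 by 0.56 (SE 0.05, and by 0.32 with the length offset). Of the 10 kinases that phosphorylate splicing factors, none rose and 5 fell, and 2 rose and 4 fell with the length offset. DYRK2 fell by 1.04 (SE 0.08), CLK1 by 0.81 (SE 0.10) and SRPK1 by 0.40 (SE 0.04). For each of these no GSK025 library reached a DMSO library, where the groups did not overlap in 54.8% of all genes.

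Among heterogeneous nuclear ribonucleoproteins (hnRNPs) and their kin, 20 of 31 rose and 8 fell, against 22.0% and 22.1% of all genes. TAF15, an RNA-binding protein rich in methylated arginines, fell from 232, 236 and 235 CPM to 133, 136 and 133 (-0.81, SE 0.04, adjusted p = 5.71e-09). HNRNPDL fell by 0.71 (SE 0.05), and HNRNPA1, which has many processed pseudogenes and is uncertain, rose by 0.41 (SE 0.03).

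Nonsense-mediated decay, which removes transcripts with early stop codons, moved without a shared direction. Of 18 genes 7 rose and 5 fell, against 22.0% and 22.1% of all genes, and 6 rose and 3 fell with the length offset. SMG1, the kinase that starts the process, fell from 139, 134 and 137 CPM to 56.9, 56.0 and 47.8 (-1.35, SE 0.08, adjusted p = 3.24e-08), and UPF2 fell by 0.97 (SE 0.09). UPF1, the helicase that SMG1 phosphorylates, rose from 148, 147 and 150 CPM to 222, 224 and 196 (0.53, SE 0.05, adjusted p = 4.63e-06). CASC3 of the exon junction complex rose by 0.61 (SE 0.04).

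In a list of long non-coding RNAs, most of them nuclear, and paraspeckle proteins, 3 of 15 gene IDs rose and 11 fell (LINC-PINT has 2 IDs). The shares over all genes were 22.0% and 22.1%. The proteins did not move together: NONO rose by 0.34 (SE 0.03) and RBM14 (overlapped) by 0.37 (SE 0.07), SFPQ fell by 0.25 (SE 0.06) and PSPC1 was at 0.17 (SE 0.06, adjusted p = 0.0539). NEAT1, the scaffold of paraspeckles, fell from 91.6, 90.3 and 90.2 CPM to 20.4, 18.7 and 21.4 (-2.17, SE 0.05, adjusted p = 1.51e-10). With GSK715 it was at 118, 117 and 119 CPM, above DMSO, and the difference between the compounds was -2.55 (SE 0.05). MALAT1 was at 5.93, 5.96 and 7.01 CPM with GSK025, against 51.5, 42.0 and 40.4 with DMSO. OIP5-AS1 fell by 1.25 (SE 0.07). The libraries were poly(A)-selected, so these values count polyadenylated forms.

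Single genes around SAM, the methyl donor, fell clearly, while the median log2 fold change of the methionine and SAM list was 0.013. MAT2A (overlapped), which makes SAM from methionine, was at 282, 278 and 280 CPM with DMSO and at 109, 104 and 111 with GSK025 (-1.38, SE 0.04, adjusted p = 2.45e-10). It was at 141, 145 and 145 CPM with GSK715, and GSK025 minus GSK715 was -0.42 (SE 0.04). AMD1, which decarboxylates SAM for polyamine synthesis, fell from 236, 219 and 233 CPM to 110, 114 and 114 (-1.02, SE 0.05, adjusted p = 8.55e-09). SAT1, which acetylates polyamines for their breakdown, fell from 2452, 2438 and 2431 CPM to 1114, 1183 and 1275, whereas it was at 4455, 4448 and 4451 with GSK715. The difference in SAT1 between the compounds was -1.90 (SE 0.04, adjusted p = 6.39e-12). AHCY, which clears the by-product of methylation, rose from 384, 397 and 383 CPM to 617, 638 and 596 (0.67, SE 0.04). Over the whole methionine and SAM list, 5 of 18 genes rose and 6 fell, against 22.0% and 22.1% of all genes, and with library totals 2 rose and 8 fell.

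**Figure D2:**
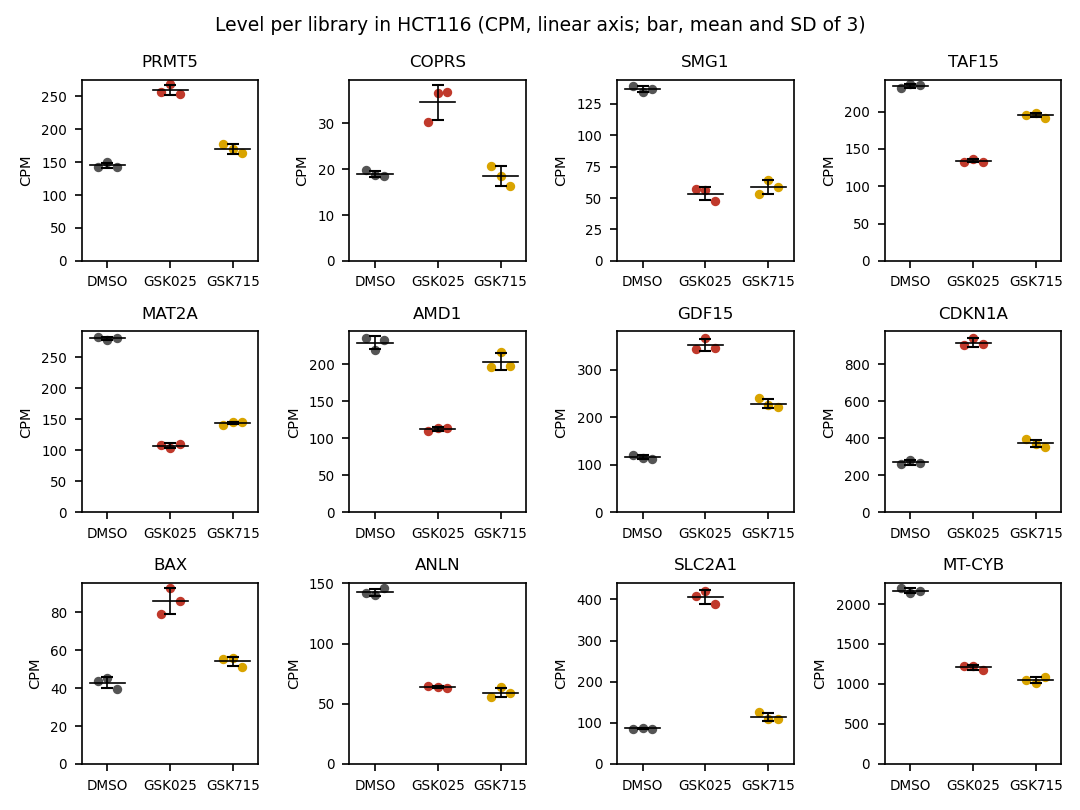
Levels of 12 genes in CPM on linear axes from 0, in each of the 3 libraries with DMSO, GSK025 and GSK715. Points are libraries, and the bar and whiskers are their mean and SD. In all 12 genes the GSK025 points lie apart from the DMSO points, above them in PRMT5, COPRS, GDF15, CDKN1A, BAX and SLC2A1 and below them in the others. The groups did not overlap in 54.8% of all genes tested.

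Most p53 targets tested rose (21 of 34, against 22.0% of all genes), while both main inhibitors of p53 fell. MDM4, which masks the p53 activation domain, fell from 69.1, 60.6 and 65.5 CPM to 43.1, 41.0 and 48.6 (-0.56, SE 0.07, adjusted p = 2.47e-05). MDM2, the ubiquitin ligase of p53 and itself a p53 target, fell from 105, 96.7 and 109 CPM to 78.9, 70.0 and 79.2 (-0.45, SE 0.08, adjusted p = 6.90e-04). Neither inhibitor had overlapping groups, as was so for 54.8% of all genes. With the length trend as an offset MDM4 was at -0.29 and MDM2 lost its call (-0.14, adjusted p = 0.16). Of the other regulators, CDKN2A rose by 0.30 (SE 0.10), a call lost with library totals and without GSK025 replicate 2 or DMSO replicate 3 (adjusted p 0.077 to 0.11), PPM1D rose by 0.22 (SE 0.05) and USP7 was at 0.11 (SE 0.05, adjusted p = 0.0723), passing with the length offset (0.27, adjusted p = 1.6e-04) and without GSK025 replicate 3 (adjusted p = 0.042).

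Of 34 p53 targets tested, 21 rose and 3 fell, against 22.0% and 22.1% of all genes, and 5 fell with library totals. CDKN1A, which encodes the cyclin-dependent kinase inhibitor p21, was at 262, 285 and 265 CPM with DMSO and at 903, 944 and 908 with GSK025 (1.76, SE 0.05, adjusted p = 1.66e-10). GDF15, a secreted stress factor, rose from 121, 114 and 113 CPM to 343, 367 and 344 (1.60, SE 0.05), and the nuclease AEN rose by 0.89 (SE 0.04). RRM2B, a ribonucleotide reductase subunit that is also a p53 target, fell from 127, 122 and 131 CPM to 89.5, 90.9 and 93.0 (-0.48, SE 0.06). CDKN1A was higher with GSK025 than with GSK715 by 1.29 (SE 0.05) and GDF15 by 0.62 (SE 0.05). AEN did not pass that test (0.08, SE 0.04).

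The BCL2 family controls the mitochondrial step of cell death. Of its 18 genes 10 rose and none fell, against 22.0% and 22.1% of all genes. Risen members were on both sides of that balance. The pore former BAX was at 43.9, 45.4 and 39.7 CPM with DMSO and at 79.3, 92.9 and 86.0 with GSK025 (1.00, SE 0.07, adjusted p = 1.52e-07). BBC3, which encodes the death activator PUMA, rose from 21.5 ± 1.01 CPM (SD, n = 3) to 38.5 ± 1.48 (0.84, SE 0.08), and stood at 67.0, 58.4 and 53.5 with GSK715. BCL2L1 (overlapped), which encodes the survival factor BCL-XL, rose from 261, 260 and 262 CPM to 400, 412 and 418 (0.65, SE 0.04). With the length offset 10 members rose and 2 fell, and with library totals 8 rose and 2 fell.

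Genes of the G1 phase gave a mixed picture, with 11 of 25 higher and 8 lower, against 22.0% and 22.1% of all genes. The pocket proteins that hold E2F in check fell: RB1 was at 38.8, 39.4 and 40.9 CPM with DMSO and at 19.9, 21.5 and 21.9 with GSK025 (-0.91, SE 0.09, adjusted p = 3.19e-06), and RBL2 (overlapped) fell by 1.17 (SE 0.06). CDK6 fell from 80.1, 75.5 and 73.8 CPM to 47.2, 44.9 and 38.5 (-0.81, SE 0.08, and -0.53 with the length offset). Its partner CCND1 (overlapped) rose by 0.54 (SE 0.04), as did the E2F family member E2F4 by 0.68 (SE 0.04).

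Most mitotic genes fell: of 45, 31 fell and 5 rose, against 22.1% and 22.0% of all genes. The count was 33 lower and 7 higher with the length offset. The median log2 fold change of the list against DMSO was -0.501 with GSK025 and -0.486 with GSK715. Set directly against GSK715, 17 of the 45 were higher with GSK025 and 8 lower, where it was 22.5% and 21.8% of all genes. ANLN, a scaffold of the cytokinetic ring, was at 142, 140 and 146 CPM with DMSO and at 64.4, 64.0 and 63.2 with GSK025 (-1.16, SE 0.05, adjusted p = 6.17e-09). NCAPG (overlapped), a condensin subunit, fell from 61.1, 56.0 and 61.9 CPM to 24.9, 26.9 and 22.1 (-1.28, SE 0.08), and TOP2A, which disentangles sister chromatids, from 112, 99.6 and 112 CPM to 51.4, 46.0 and 46.1 (-1.17, SE 0.07). The exceptions included regulators of the spindle and of mitotic exit. PLK1 (overlapped), a kinase of spindle assembly, rose from 83.7, 86.2 and 89.5 CPM to 128, 129 and 116 (0.52, SE 0.05, adjusted p = 2.59e-06). UBE2C, which hands ubiquitin to the anaphase-promoting complex, rose by 0.46 (SE 0.06, and by 0.24 with the length offset), and KIF2C, which takes microtubules apart at kinetochores, rose from 104, 102 and 99.8 CPM to 122, 125 and 130 (0.30, SE 0.05).

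Many mitotic promoters carry the cell cycle genes homology region (CHR), through which the DREAM complex represses them downstream of p21, often beside CCAAT boxes. Whether that repression took part in the changes given here was not tested. The promoters of called mitotic genes are shown because members that fell and members that rose can be compared in them. Each run is the 150 bases before the transcription start, from RefSeq on GRCh38.p14, given 5′ to 3′ on the strand of the gene. Capitals mark the CHR, searched as TTTGAA and also as its variant TTCGAA, and the CCAAT box, each on both strands, so that reverse complements are marked too. In ANLN both orientations of the CHR stand side by side.
ANLN (fell; chr7:36389712-36389861, plus strand): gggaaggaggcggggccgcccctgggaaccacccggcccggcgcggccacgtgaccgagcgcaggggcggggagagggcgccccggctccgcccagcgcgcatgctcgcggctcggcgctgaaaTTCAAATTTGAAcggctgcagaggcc
NCAPG (fell; chr4:17810829-17810978, plus strand): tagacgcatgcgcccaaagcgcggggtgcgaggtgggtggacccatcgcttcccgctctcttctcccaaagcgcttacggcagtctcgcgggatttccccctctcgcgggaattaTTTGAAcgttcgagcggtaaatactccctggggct
TOP2A (fell; chr17:40417897-40418046, minus strand): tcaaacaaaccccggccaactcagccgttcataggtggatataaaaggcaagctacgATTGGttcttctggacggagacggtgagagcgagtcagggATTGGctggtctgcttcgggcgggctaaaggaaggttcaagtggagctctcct
PLK1 (rose; chr16:23678739-23678888, plus strand): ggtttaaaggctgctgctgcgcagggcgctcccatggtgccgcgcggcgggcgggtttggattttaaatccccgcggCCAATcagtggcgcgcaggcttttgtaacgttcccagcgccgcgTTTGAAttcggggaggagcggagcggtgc
KIF2C (rose; chr1:44739687-44739836, plus strand): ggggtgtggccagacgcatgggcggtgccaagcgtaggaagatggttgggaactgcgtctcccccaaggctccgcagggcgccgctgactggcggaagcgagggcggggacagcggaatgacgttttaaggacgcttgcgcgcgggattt

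Over windows from 250 bases before to 50 after the start, and only for genes with a single start in the RefSeq table, 24 of 32 mitosis promoters held a CHR (75%). The share was 17.2% of all 22114 such promoters, 11.2% of those of genes tested, 12.7% of those of genes that fell and 8.07% of those of genes that rose. Of mitotic genes that fell, 19 of 24 held it, of those that were not called, 4 of 6, and of those that rose, 1 of 2 (PLK1), too few to compare. In the DNA replication list it was 2 of 31. A CCAAT box was in 71.9% of the mitosis promoters and in 36.2% of all. PLK1 rose with a CHR and a CCAAT box in its 150 bases, and TOP2A fell with 2 CCAAT boxes and no CHR there. With only the 250 bases before the start, a CHR was in 16 of 32 mitosis promoters, in 11 of 24 of the genes that fell and in 4 of 6 of those not called, so that the order of those groups turned.

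DNA replication genes moved in both directions, with 18 of 46 higher and 11 lower, against 22.0% and 22.1% of all genes. The helicase subunit MCM2 (overlapped) rose from 62.7, 63.6 and 67.0 CPM to 109, 116 and 110 (0.80, SE 0.05), and MCM7 rose by 0.60 (SE 0.04). PCNA, the sliding clamp, which is also a p53 target, rose from 112, 115 and 114 CPM to 173, 170 and 188 (0.64, SE 0.05, and 0.41 with the length offset). RFC1, part of the loader of that clamp, fell by 0.70 (SE 0.07), and RRM2 (overlapped), the ribonucleotide reductase subunit of S phase, fell by 0.69 (SE 0.04).

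Genes of homologous recombination and the Fanconi pathway fell more often than they rose, 20 against 7 of 37. The shares over all genes were 22.1% and 22.0%. The largest decrease among them was in NABP1, a single-stranded DNA-binding subunit of the SOSS complex, which went from 26.4, 23.7 and 25.6 CPM to 3.91, 3.18 and 3.94 (-2.78, SE 0.11, adjusted p = 3.70e-09). Its paralogue NABP2, which can take its place in that complex, rose from 24.1, 24.1 and 24.6 CPM to 41.2, 43.7 and 45.2 (0.84, SE 0.06, adjusted p = 1.41e-07). Of the 6 PI3K-related kinases, which are very large proteins, 3 fell and 2 rose. The checkpoint kinase ATM fell from 25.1, 23.1 and 23.8 CPM to 4.34, 5.79 and 5.79 (-2.18, SE 0.13, adjusted p = 5.17e-08), and ATR (overlapped) from 30.0, 22.4 and 25.8 CPM to 5.74, 6.10 and 5.19 (-2.20, SE 0.12). SMG1 was the other that fell, as given above. With GSK715 against DMSO, ATM was at -1.91, ATR at -1.53 and SMG1 at -1.22. MTOR rose by 0.26 (SE 0.05, and 0.55 with the length offset) and TRRAP by 0.23 (SE 0.06, and 0.61 with the length offset, losing its call with library totals at adjusted p = 0.051). PRKDC was at 0.02 (SE 0.07) and 0.36 with the length offset, where it passed.

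These decreases stood within a wider relation between the change and the length of the transcript. Over 10699 protein-coding genes of at least 5 CPM, Spearman's rank correlation across genes between the log2 fold change and the exonic length was -0.307, as a description, since genes are not independent replicates. By library against the DMSO mean it was -0.249, -0.305 and -0.351. Among genes with 1 to 2 kb of exons, 56.2% rose and 9.79% fell, with a median log2 fold change of 0.30, whereas at 16 kb and over 17.3% rose and 53% fell, with a median of -0.27. The same coefficient was -0.284 with the span of the gene, -0.175 with the number of introns and 0.184 with the level, and these features are themselves related. Within 4 to 8 kb of exons the shares followed no single order with introns: 18.3% rose and 47.9% fell among 71 genes with 1 intron, 35.3% and 31.7% with 5 to 9 introns, 39% and 31.4% with 10 to 19, and 35.0% and 40.5% with 20 to 39. The relation was not particular to GSK025: with GSK715 against the same DMSO libraries the coefficient with exonic length was -0.29. The median log2 fold change with GSK715 was 0.253 at 1 to 2 kb and -0.348 at 16 kb and over. Between the compounds, the coefficient was -0.0201. What brings about the relation, RNA integrity and library preparation included, was not tested.

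**Figure D3:**
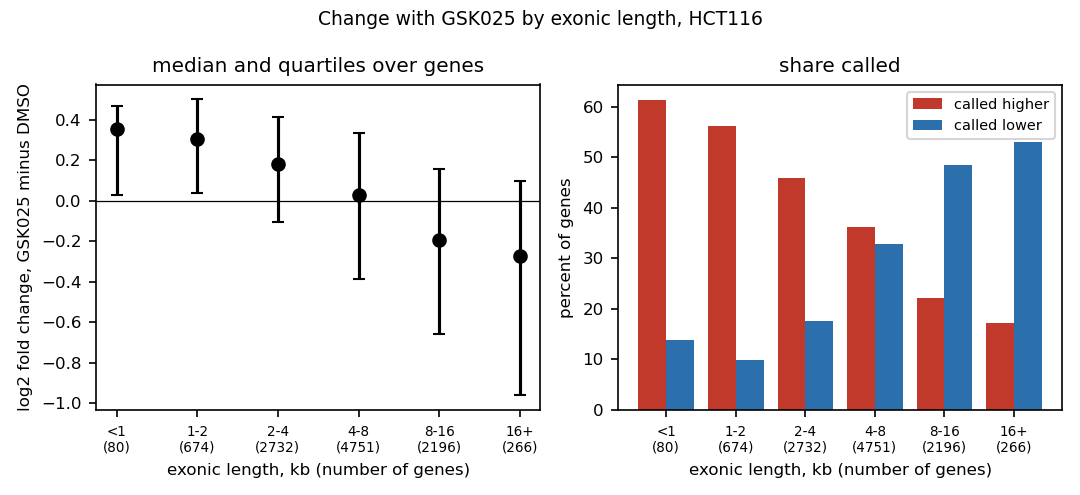
Protein-coding genes of at least 5 CPM by exonic length in kb, with the number of genes under each class. Left, median log2 fold change of GSK025 against DMSO with quartiles over genes as whiskers. Right, percent of genes called higher (red) or lower (blue). The median goes from 0.30 at 1 to 2 kb to -0.27 at 16 kb and over, and the share that fell from 9.79% to 53%.

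When the trend with length was taken out as an offset in the fit, 4342 genes rose and 4267 fell, and 7504 calls were shared with those above, with 11 in the opposite direction. Groups of genes with long transcripts depended on this. Of 28 histone lysine methyltransferases 5 rose and 12 fell, against 22.0% and 22.1% of all genes. With the offset 11 rose and 7 fell. Of 30 chromatin remodellers 9 rose and 12 fell, but 16 rose and 7 fell with the offset. CHD1 and BPTF fell with either fit. CHD1 went from 53.7, 47.0 and 51.8 CPM to 20.4, 17.7 and 19.4 (-1.41, SE 0.10), and BPTF, the large subunit of a nucleosome remodelling factor, from 68.9, 65.7 and 70.9 CPM to 34.1, 24.9 and 23.4 (-1.32, SE 0.12). KMT2C, which methylates histone H3 at enhancers, fell by 1.07 (SE 0.08, and by 0.68 with the offset).

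Centrosome and cilium genes, also long, fell more often than they rose with either fit. Of 20, 12 fell and 1 rose, and with the offset 12 fell and 4 rose. Of all genes tested, 22.1% fell and 22.0% rose. Of protein-coding genes with 8 to 16 kb of exons and at least 5 CPM, 48.5% fell and 22.2% rose. The median log2 fold change of the list against DMSO was -0.889 with GSK025 and -1.11 with GSK715. CEP350 went from 36.2, 33.1 and 34.1 CPM to 10.7, 10.2 and 9.76 (-1.75, SE 0.12, adjusted p = 1.39e-07) and PCM1, of the centriolar satellites, fell by 1.24 (SE 0.07). CEP250, which links centrosomes, was the member that rose (0.50, SE 0.05, and 0.84 with the offset). Zinc finger genes of the KRAB and other classes fell more often than they rose as well, 156 against 50 of 412, and 147 against 52 with the offset. ZNF652 went from 52.0, 49.1 and 52.4 CPM to 21.1, 21.4 and 20.4 (-1.29, SE 0.06). These families hold near-identical members, so single values can be uncertain.

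By chromosome, 57.3% of genes of at least 5 CPM on chromosome 19 rose and 13.2% fell, and on chromosome 22 it was 54.1% and 13.9%. On chromosome 13, 14.5% rose and 50.5% fell, and on chromosome 4, 17.0% and 49.0%. Of all genes of at least 5 CPM, 36.1% rose and 30.7% fell. The median log2 fold change with GSK025 was 0.297, 0.298, -0.279 and -0.229 on chromosomes 19, 22, 13 and 4. With GSK715 against DMSO it was 0.205, 0.158, -0.288 and -0.27. Gene length and density differ between these chromosomes, and their part in the pattern was not tested.

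**Figure D4:**
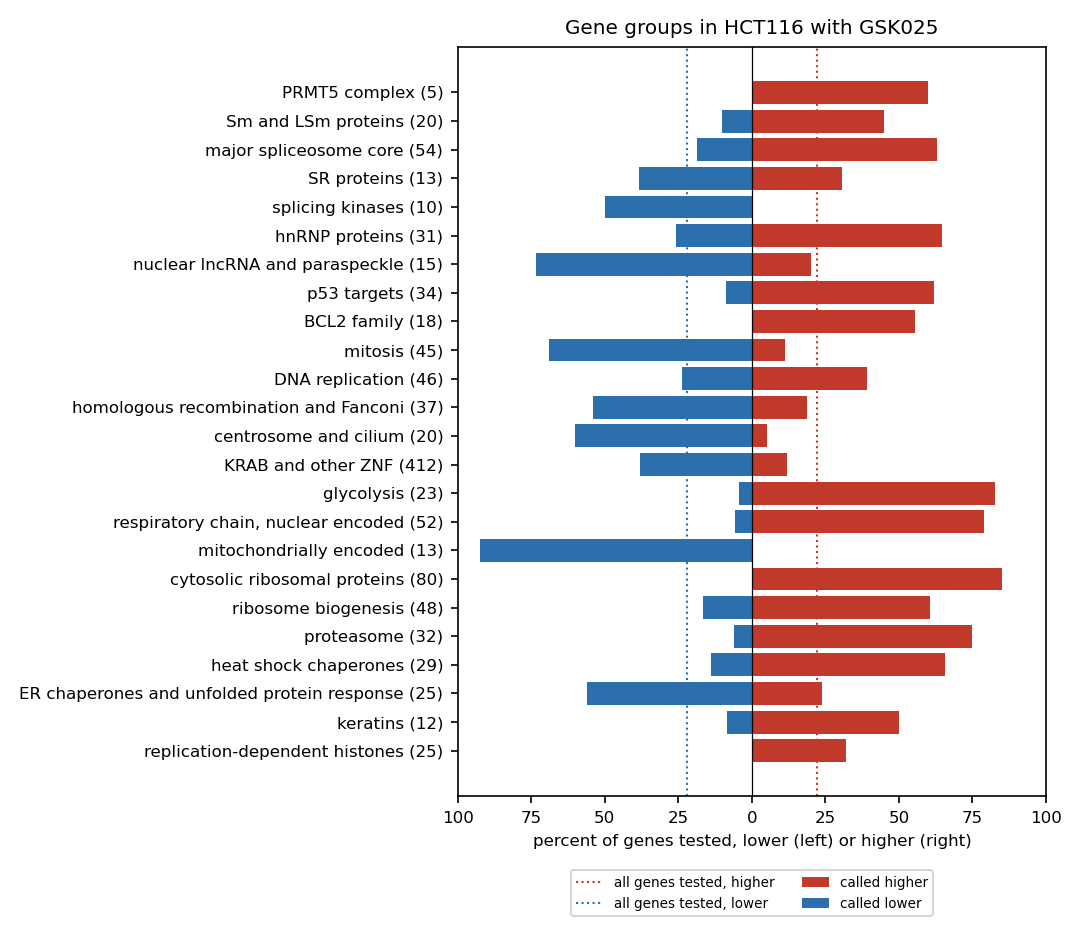
Percent of tested genes in 24 groups that were called lower (blue, left) or higher (red, right) with GSK025 than with DMSO, with the number tested in brackets. Dotted lines give the share over all genes tested, 22.1% lower and 22.0% higher, which is not matched for level. Among the 224 protein-coding genes of highest level it was 16.5% lower and 70.5% higher. Mitochondrially encoded, paraspeckle and mitotic genes reach furthest left, and ribosomal protein, glycolysis and respiratory chain genes furthest right.

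Genes of glucose metabolism rose broadly. Of 23 glycolysis genes 19 rose and 1 fell, with a median log2 fold change of 0.44. SLC2A1, which encodes the glucose transporter GLUT1, was at 409, 422 and 389 CPM with GSK025, against 85.8, 87.8 and 86.0 with DMSO and 125, 110 and 109 with GSK715. PGAM1 rose from 323, 336 and 326 CPM to 495, 492 and 502 (0.60, SE 0.03) and GPI from 691, 692 and 706 to 1122, 1120 and 1054 (0.66, SE 0.04). TKT, of the pentose phosphate pathway, rose from 844, 855 and 828 CPM to 1400, 1468 and 1394 (0.75, SE 0.04). The enolase ENO2 was the glycolysis gene that fell (-0.19, SE 0.05), and 2 fell with library totals or with the length offset. Of 20 hypoxia genes outside that list 6 rose and 4 fell, against 22.0% and 22.1% of all genes. NDRG1 rose by 0.82 (SE 0.04), and HIF1A, which encodes the regulated subunit of hypoxia-inducible factor, fell from 127, 129 and 133 CPM to 81.7, 81.5 and 77.0 (-0.69, SE 0.07).

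The respiratory chain split by the genome that encodes it, where 22.0% of all genes rose and 22.1% fell. Of its 52 nuclear genes 41 rose and 3 fell (31 and 3 with the length offset), and of 13 protein genes of the mitochondrial genome none rose and 12 fell. The split was not particular to GSK025. Median log2 fold changes of the nuclear and mitochondrial lists were 0.313 and -0.718 with GSK025. With GSK715 against DMSO they were 0.345 and -0.688. ATP5F1B, a catalytic subunit of ATP synthase, went from 884, 876 and 862 CPM to 1309, 1384 and 1387 (0.64, SE 0.03). NDUFS3 (overlapped) of complex I rose by 0.75 (SE 0.05). MT-CYB, the mitochondrial subunit of complex III, fell from 2203, 2135 and 2162 CPM to 1229, 1226 and 1175 (-0.84, SE 0.03, adjusted p = 3.70e-09), and MT-ND4 fell by 0.72 (SE 0.03). Factors of mitochondrial DNA and RNA were divided, with 8 of 22 higher and 8 lower: LRPPRC, which stabilises mitochondrial messenger RNAs, fell from 216, 212 and 217 CPM to 114, 120 and 118 (-0.87, SE 0.06), while POLG, the mitochondrial DNA polymerase, rose from 76.4, 74.6 and 75.7 to 152, 154 and 138 (0.97, SE 0.05). The RNA nuclease PNPT1 fell by 0.93 (SE 0.10).

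Most genes of cytosolic ribosomes rose. Of 80 cytosolic ribosomal protein genes 68 rose and none fell, and 57 rose and 2 fell with the length offset. RPS3 was at 2012, 2000 and 1944 CPM with DMSO and at 2797, 2998 and 3101 with GSK025 (0.58, SE 0.04), and RPL3 at 3780, 3853 and 3791 and then at 5028, 5252 and 5270 (0.44, SE 0.03). Ribosomal protein genes have many near-identical pseudogenes, which makes single values uncertain. Of 48 ribosome biogenesis genes 29 rose and 8 fell. PES1, of the large subunit pathway, rose from 86.5, 93.1 and 84.1 CPM to 149, 150 and 154 (0.78, SE 0.05), while the nucleolar GTPase GNL3 fell by 0.48 (SE 0.04). Mitochondrial ribosomal protein genes rose in 41 of 78 cases and fell in 9, and in 30 and 17 with the length offset. Of 37 aminoacyl-tRNA synthetases 15 rose and 9 fell, against 22.0% and 22.1% of all genes, and 14 fell with library totals or with the length offset. VARS1 rose by 0.57 (SE 0.04) and RARS1 fell by 0.76 (SE 0.07).

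Genes of protein quality control in the cytosol mostly rose, and those of the endoplasmic reticulum (ER) mostly fell. The shares over all genes were 22.0% higher and 22.1% lower. Of 32 proteasome genes 24 rose and 2 fell: PSMB5, the chymotrypsin-like subunit, rose from 123, 128 and 123 CPM to 188, 197 and 204 (0.66, SE 0.04, and 0.44 with the length offset), and PSMC6 fell by 0.56 (SE 0.08). Of 29 cytosolic chaperones 19 rose and 4 fell, and 17 rose and 7 fell with the length offset. CCT7 of the ring chaperonin TRiC rose from 425, 451 and 423 CPM to 650, 688 and 686 (0.64, SE 0.04), against HSP90AA1, the inducible HSP90, which fell from 1707, 1611 and 1690 CPM to 936, 860 and 920 (-0.88, SE 0.07). Of 25 ER chaperones and genes of the unfolded protein response 6 rose and 14 fell, and 2 rose and 15 fell with library totals. HSPA5, which encodes the chaperone BiP, fell from 2091, 2075 and 2078 CPM to 1343, 1319 and 1279 (-0.66, SE 0.03, adjusted p = 3.50e-09), HSP90B1 by 0.87 (SE 0.04) and DNAJC3 by 0.93 (SE 0.06).

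The response driven by ATF4, the transcription factor of amino acid shortage, showed no common direction with GSK025. Of 33 genes 13 rose and 8 fell, against 22.0% and 22.1% of all genes. DDIT3 (overlapped), which encodes CHOP, fell from 47.5, 47.9 and 49.5 CPM to 19.8, 24.3 and 22.1 (-1.13, SE 0.07), and ASNS (overlapped), asparagine synthetase, from 232 in each DMSO library to 167, 174 and 170 (-0.45, SE 0.04). The serine pathway genes SHMT2 (0.62, SE 0.05) and PHGDH (0.56, SE 0.05) rose.

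In the phosphoinositide pathway the largest increase was in a phosphatase. INPP5D, which encodes SHIP1, was at 18.9, 17.3 and 16.9 CPM with GSK025 and at 1.88, 2.30 and 1.93 with DMSO. Its relative INPPL1, which encodes SHIP2 and removes the same phosphate, rose from 62.1, 65.7 and 61.1 CPM to 111, 118 and 110 (0.84, SE 0.05, adjusted p = 3.24e-08). AKT1 rose by 0.57 (SE 0.05). RICTOR, the defining subunit of mTOR complex 2, fell from 47.8, 40.1 and 45.5 CPM to 11.8, 13.2 and 12.3 (-1.84, SE 0.10, adjusted p = 2.51e-08), and FOXO3 fell by 0.61 (SE 0.05). Over the pathway 9 of 27 genes rose and 12 fell, against 22.0% and 22.1% of all genes. With the length offset 10 rose and 6 fell, so the list had no direction that held.

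Genes of epithelial structure rose in part. Of 12 keratins 6 rose and 1 fell: KRT8 was at 2053, 2128 and 2062 CPM with DMSO and at 3862, 3987 and 3770 with GSK025 (0.90, SE 0.03), KRT18 (overlapped) rose by 0.96 (SE 0.04) and KRT19 by 0.63 (SE 0.04). These keratins and ACTB, which rose by 0.91 (SE 0.03), have near-identical pseudogenes and are uncertain. Of 18 integrins, the receptors for the matrix, 4 rose and 6 fell, against 22.0% and 22.1% of all genes, and 6 rose and 5 fell with the length offset. ITGB4, of hemidesmosomes, rose from 153, 158 and 159 CPM to 425, 426 and 357 (1.36, SE 0.06, adjusted p = 6.60e-09) and ITGB5 by 0.90 (SE 0.06), while ITGB1 fell by 0.44 (SE 0.03), its partner ITGA6 by 0.40 (SE 0.04) and ITGAV by 0.69 (SE 0.06). S100A4, a calcium-binding protein of motile cells, rose from 83.3, 79.5 and 81.3 CPM to 177, 193 and 191 (1.20, SE 0.05), and ZEB1, a repressor of epithelial genes, fell from 5.56, 5.23 and 7.10 CPM to 2.10, 2.60 and 2.73 (-1.27, SE 0.25, adjusted p = 9.40e-04). COL6A3, a collagen chain, was at 1.94, 2.48 and 2.22 CPM with DMSO and at 17.7, 13.8 and 3.26 with GSK025, so its increase rested on 2 of the 3 libraries.

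Signalling ligands and factors of the intestinal lineage moved singly. Of 17 Wnt targets and crypt genes 9 rose and 4 fell, against 22.0% and 22.1% of all genes. BMP4 rose from 73.9, 72.6 and 68.3 CPM to 148, 141 and 151 (1.03, SE 0.05, adjusted p = 9.15e-09) and SOX9, of crypt progenitors, from 125, 132 and 129 to 207, 199 and 196 (0.64, SE 0.04), while DKK1, a secreted Wnt inhibitor, fell from 357, 354 and 359 CPM to 162, 164 and 172 (-1.10, SE 0.04, adjusted p = 1.18e-09). The Notch ligand JAG1 rose from 73.1, 68.7 and 67.7 CPM to 128, 119 and 114 (0.79, SE 0.06). Among ligands of the EGF receptor, TGFA rose by 0.59 (SE 0.05) and EREG fell from 197, 200 and 208 CPM to 114, 112 and 113 (-0.83, SE 0.04). DUSP4, a phosphatase induced by MAPK signalling, rose from 217, 214 and 230 CPM to 417, 388 and 389 (0.85, SE 0.04). CXCL8, which encodes the chemokine interleukin-8, fell from 9.41, 10.7 and 9.74 CPM to 3.57, 3.49 and 4.69 (-1.34, SE 0.14).

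Other genes were among the 12 largest changes in either direction. PTAFR, the receptor for platelet-activating factor, was at 4.30, 4.54 and 4.97 CPM with DMSO and at 18.1, 20.2 and 16.9 with GSK025 (2.00, SE 0.12). ARFRP1, a small GTPase of the Golgi, rose from 30.5, 33.4 and 28.9 CPM to 103, 97.7 and 94.7 (1.67, SE 0.06, adjusted p = 2.08e-09). Among the decreases were ONECUT2, a transcription factor, from 27.7, 27.7 and 27.3 CPM to 4.78, 3.18 and 3.77 (-2.82, SE 0.19), and VPS13A, a lipid transfer protein (-2.66, SE 0.17). PUS7L, PTAR1 and ZBTB37 fell by 2.43, 2.40 and 2.42. That the GSK025 and DMSO libraries did not overlap in these 7 genes was a condition of the rule that named them. The named decreases were also present with GSK715 against DMSO: ONECUT2 was at -2.5, VPS13A at -2.3, PUS7L at -2.3, PTAR1 at -1.8 and ZBTB37 at -2.0. Of 25 replication-dependent histone genes 8 rose and none fell, against 22.0% and 22.1% of all genes. H1-2 was at 0.95 (SE 0.08) and H2BC5 at 2.05 (SE 0.18). Histone genes are near-identical copies whose main transcripts lack a poly(A) tail, so these values are uncertain.

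Set directly against GSK715, GSK025 differed in 8746 genes (44.3% of those tested), with higher levels in 4444 (22.5%) and lower levels in 4302 (21.8%). With library totals in place of TMM the split was 5406 to 3474, so that 60.9% of calls were higher in place of 50.8%. The contrast itself is between the GSK025 and GSK715 libraries, while the DMSO libraries share its filter, scaling and spread. Without them 4118 genes were higher and 4136 lower. Of the 80 cytosolic ribosomal protein genes tested, 67 were lower with GSK025 than with GSK715 and 1 was higher. Of 25 ER genes 21 were lower than with GSK715 and 1 higher, and of 33 ATF4 genes 22 were lower and 4 higher. HSPA5 was at 7144, 7098 and 6990 CPM with GSK715, above DMSO, where GSK025 lay below it, and differed between the compounds by -2.43 (SE 0.03, adjusted p = 2.44e-14). ASNS (overlapped) was at 636, 611 and 598 CPM with GSK715 and differed by -1.85 (SE 0.04). Of 28 host genes of small nucleolar RNAs 17 were lower than with GSK715 and 3 higher. GAS5 was at 280, 277 and 282 CPM with DMSO, at 195, 214 and 246 with GSK025 and at 577, 559 and 575 with GSK715.

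The genes named next were taken only among those that GSK025 also changed from DMSO in the same direction. Their change from DMSO was thus a condition of the choice. HDAC4, a class IIa histone deacetylase, was at 12.8, 14.5 and 13.7 CPM with DMSO, at 22.2, 21.0 and 20.3 with GSK025 and at 3.03, 1.81 and 1.85 with GSK715, a difference between the compounds of 3.24 (SE 0.18, adjusted p = 1.52e-08). WWC3, a relative of the Hippo pathway protein KIBRA, was at 23.8, 22.1 and 23.3 CPM with GSK025 and at 2.53, 1.66 and 1.78 with GSK715 (3.53, SE 0.15), and HADH, of fatty acid oxidation, differed by 3.02 (SE 0.09). NT5E, which encodes the ectonucleotidase CD73, was at 80.4, 73.2 and 77.5 CPM against 6.21, 4.80 and 6.12 (3.75, SE 0.09, adjusted p = 1.09e-11). Its rise over DMSO was small (0.24, SE 0.08) and lost its call in 6 other fits (adjusted p 0.052 to 0.099). Of the genes lower than with GSK715, CPA4, a carboxypeptidase, was at 180, 191 and 184 CPM with DMSO, at 90.3, 87.0 and 88.3 with GSK025 and at 649, 658 and 618 with GSK715 (-2.86, SE 0.04). CHAC1, which breaks down glutathione, differed by -3.05 (SE 0.15).

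**Figure D5:**
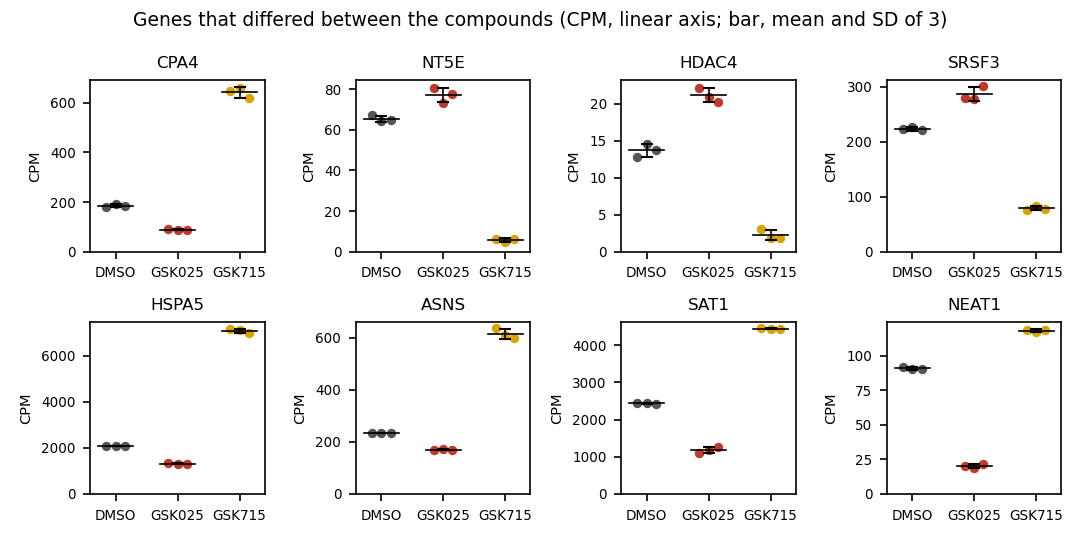
Levels of 8 genes in CPM on linear axes from 0, in each of the 3 libraries with DMSO, GSK025 (10 µM) and GSK715 (5 µM). Points are libraries, and the bar and whiskers are their mean and SD. The GSK025 and GSK715 points lie on opposite sides of the DMSO points in all 8 genes, which were chosen for differing between the compounds. Other genes, such as MAT2A, moved the same way with both.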

How the data were processed

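Poly(A) libraries of HCT116 were read in pairs on an Illumina NovaSeq, per the labels' protocols. The submitters' processing notes list GRCh38 as the build and, without roles, Salmon, minimap2, HISAT2, cutadapt, DESeq2 and StringTie. Versions, annotation release and strand are not given in the sources used here. The deposited table holds the authors' raw counts per gene. Of 60612 Ensembl IDs, 60588 had a symbol and 58394 a model in GENCODE 29 (GRCh38), which gave lengths, introns and overlaps.

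The 9 HCT116 libraries were fitted together in R 4.3.3 with edgeR 4.0.16 (filterByExpr with minimum count 10 and minimum total 15, TMM factors 0.929 to 1.06, quasi-likelihood F-test with 6 residual degrees of freedom, Benjamini-Hochberg over 19751 genes, threshold 0.05). SE is the log2 fold change divided by the root of F. Depth was 64558688 to 66915779 counts per library.

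The contrasts were GSK025 with DMSO and GSK025 with GSK715. The members, 61 gene lists, tests and rules were chosen with earlier results of these data known, and the lists are described by counts only. Named genes are a part of those taken by a rule: the 12 largest changes each way among called genes of at least 5 CPM without overlap of the groups, in each list and direction the 3 called genes of lowest adjusted p, all members of the PRMT, SMN, Sm, PI3K-related kinase and p53 regulator lists, the 8 largest differences each way from GSK715 in genes that changed from DMSO in the same direction, and the 10 called genes with the highest CPM each way at a change of at least 1.5-fold.

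The fit was tested on simulated counts for the 18942 genes of GSK025 with DMSO: of 50 genes per size, 84% were called at 2-fold up, 62% at 1.5-fold up, 54% at 0.667-fold and 78% at 0.5-fold, with none in the wrong direction and 0.048% of 18742 unchanged genes called. This is version 3 of the simulation. The earlier versions missed a cutoff on the share called, set for the simulation alone, and the cutoff was then dropped while the checks on bias, direction and false calls stayed. Calls were first made from rounded p-values and were remade from exact ones. Alternatives were RLE size factors, library totals, the length trend as an offset (lowess span 0.3), no count filter, DESeq2 1.42.0, a replicate block, no mitochondrial genes, only the groups compared, and each replicate left out. Protein sequences of the Sm proteins were planned and are not used here. A few genes met the naming rule but are left unreported.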

Additional observations from a re-analysis of the deposited data

How the results depend on the processing

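None of the counts of genes over the whole table moved by over 1.5 times under any alternative run. Genes that rose with GSK025 numbered 3650 with library totals and up to 4533 with DESeq2, and genes that fell 3925 without a count filter and up to 4900 with library totals. With each replicate left out in turn, 3899 to 4029 rose and 3859 to 4126 fell. Library totals shifted the median log2 fold change by -0.0671 against DMSO and by 0.0927 against GSK715. For 223 genes named or considered, 3118 values were refitted. No direction reversed where the gene was called in the main or the other fit, and sign changes of uncalled values were not counted. The call was lost in 35 values and gained in 3. The labels do not say whether replicate numbers pair the libraries. Deviations from the group mean correlated at -0.0732, 0.0387 and -0.0631 between same-numbered DMSO and GSK025 libraries. Between differently numbered ones the correlations were -0.0777 to 0.129. With 3 libraries per group, such values cannot show whether libraries were paired. With the replicate number as a block 4226 genes rose and 4260 fell. The CHR share with only the 250 bases before the start was 50% in the mitosis list, in place of 75%, and 10.2% among genes that fell, in place of 12.7%. Fewer bases were searched there. The exonic length offset moved further values than those given above by over 1.5 times: ATP5F1A was at 0.72 in place of 0.46 and HADH at 0.82 in place of 0.53. Low genes are measured less precisely: of protein-coding genes under 1 CPM, 1.75% rose and 6.19% fell.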
